A study of Mus musculus with 9 samples.

Results

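The Wnt system of the mouse uterus was followed through 56 genes, of 18094 in the deposited count table. They were taken by a rule on gene symbols, which uses no measured value but was written with earlier results of these data known: every Wnt, Fzd, Dkk, Sfrp, Rspo and Nkd gene of the table, with Lrp5, Lrp6, Ctnnb1, Axin1, Axin2, Lef1, Tcf7, Tcf7l1, Tcf7l2, Lgr4, Lgr5, Lgr6, Notum, Znrf3, Rnf43 and Wif1. Uterine RNA came from 9 female mice killed at 13 weeks of age, 3 in each of 3 groups. Tamoxifen+primidone mice were fed tamoxifen, which blocks or activates the estrogen receptor depending on the tissue, at 1 mg/kg on days 1 to 5 after birth, and the anticonvulsant primidone intraperitoneally at 2 mg/kg per day for 3 weeks beginning at week 10. Tamoxifen mice had the same neonatal drug and the vehicle as adults. Control mice had the neonatal solvent of peanut oil, lecithin and condensed milk, which all groups shared, and the adult vehicle, spelled vesicle in the labels. Neonatal tamoxifen is a model of adenomyosis, the growth of endometrium into the uterine muscle. Primidone without neonatal tamoxifen was not analysed here, and the sources used here do not give the estrous stage of the mice.

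Wnt proteins are secreted, lipid-modified ligands that bind Frizzled receptors together with the co-receptors Lrp5 or Lrp6. Binding stops the destruction complex, built on Axin1 or Axin2, from marking beta-catenin (Ctnnb1) for degradation, and beta-catenin then activates genes with TCF/LEF factors in the nucleus. R-spondins strengthen the signal by binding Lgr receptors and removing the ubiquitin ligases Rnf43 and Znrf3, which clear Frizzled from the cell surface. Dkk, Sfrp, Wif1 and Notum proteins act against Wnt ligands or their receptors outside the cell, Nkd proteins act inside it, and Axin2, Lef1, Tcf7, Nkd1, Notum, Rnf43, Znrf3 and Lgr5 are themselves targets of beta-catenin, so that they feed back on the pathway. In the mouse, Wnt4, Wnt5a and Wnt7a are needed for the formation or patterning of the female reproductive tract, and Wnt signals take part in gland formation and decidualization.

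Of the 56 members, 48 passed a filter on low counts and were tested among 15186 genes. Dkk1, Fzd9, Rspo2, Wnt10a, Wnt3, Wnt3a, Wnt8b and Wnt9b did not pass. Library totals ran from 36393120 to 39958443 counts. Tamoxifen+primidone replicate 1 was the highest or lowest of the 9 libraries for 43.8% of the tested members, against 27.3% of all tested genes, and control replicate 3 for 33.3%, against 23.9%. The uterine patterning genes Hoxa10 and Hoxa11 had from 70.8 to 141 CPM and from 66 to 120 CPM in every library, where CPM is the count scaled to the normalised library size and to a fixed total. For both genes the 3 tamoxifen+primidone libraries were the highest. The ovary and oviduct markers Amh, Zp3, Gdf9 and Ovgp1 summed to 1.09 to 1.91 CPM in tamoxifen+primidone libraries, 62.7 to 267 CPM in tamoxifen libraries and 1.57 to 37.2 CPM in control libraries. Nearly all of that sum was Ovgp1, an oviduct glycoprotein, in the tamoxifen libraries, and its part in the results below was not tested.

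Levels of different members were compared as FPKM, which the authors scaled to gene length. Beta-catenin had the highest level, with a mean of 314 FPKM over the 9 libraries. Sfrp4, a secreted Frizzled-related protein, followed with 143 FPKM, and Wnt4 came next with 31.2 FPKM. The highest ligands after Wnt4 were Wnt5a with 15.3 FPKM, Wnt7b with 12.1 FPKM, Wnt7a with 11.6 FPKM and Wnt16 with 7.09 FPKM. Wnt7b and Wnt7a overlapped across libraries, so their order was not separated by the spread. Fzd6, Fzd2 and Fzd1 led the Frizzled receptors with 23.1, 19.7 and 19.3 FPKM, again with overlapping libraries. Rspo1 led the R-spondins and Lgr4 their receptors, with 23.4 and 14 FPKM. At the low end, Wnt3a had 1 count in tamoxifen replicate 3 and 0 counts in the other 8 libraries. Dkk1, an inhibitor that binds the Lrp co-receptors, had 1 count in tamoxifen+primidone replicate 3, 4 counts in tamoxifen replicate 1 and 0 counts in the other 7 libraries.

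**Figure D1:**
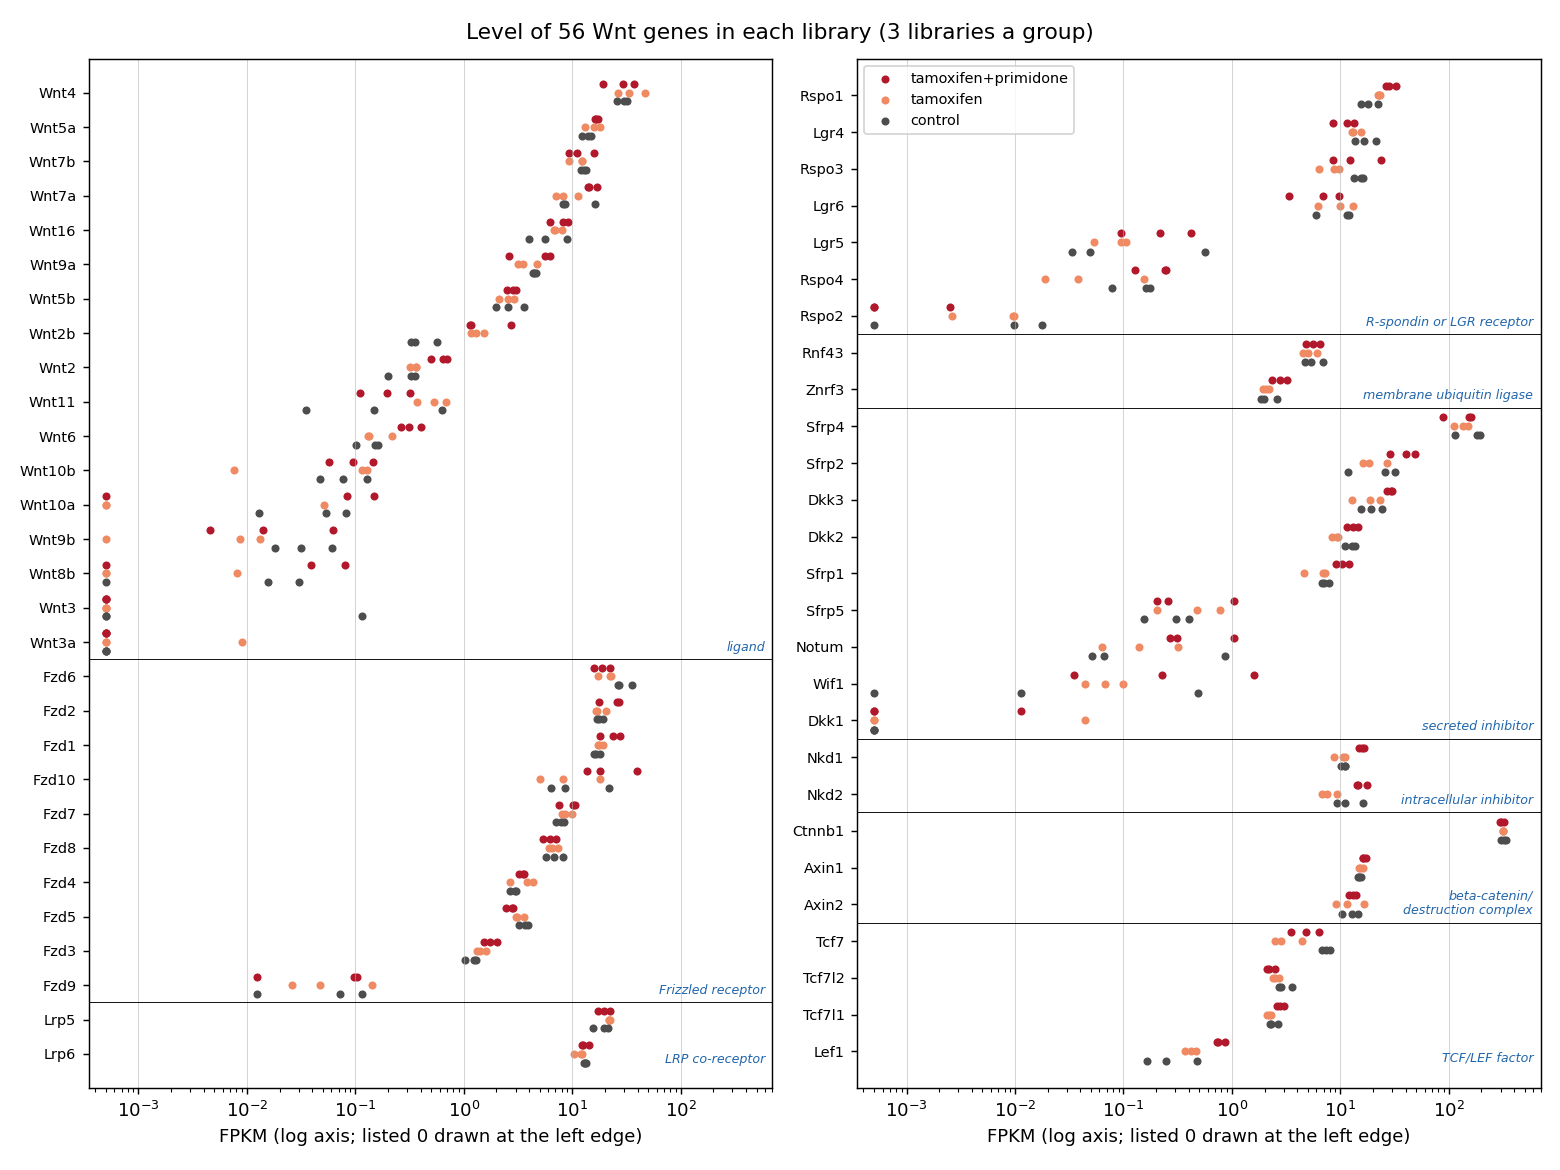
FPKM of the 56 Wnt genes on a log axis, 1 point per library, grouped by role, with values of 0 drawn at the left edge. Ctnnb1 and Sfrp4 lie farthest to the right, with means of 314 and 143 FPKM, and Wnt2b is the ligand whose 3 control libraries lie left of all 6 others.

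Tamoxifen+primidone against control gave the most calls among the Wnt genes. Wnt2b, Rspo1 and Nkd1 were higher and Fzd5, Fzd6 and Tcf7l2 lower, by edgeR's quasi-likelihood test at an adjusted p under 0.05. These 6 of 48 tested members are 12.5%, where 5.35% of all tested genes were called. The 3 higher and the 3 lower members are 6.25% each, against 2.14% of all genes higher and 3.21% lower. Wnt2b, a ligand, had 9.36, 4.03 and 3.95 CPM in tamoxifen+primidone libraries, 4.72, 4.16 and 5.62 CPM in tamoxifen libraries and 1.2, 2.03 and 1.3 CPM in control libraries. Every drug-treated library lay above every control library, and tamoxifen+primidone replicate 1 lay above the rest. Wnt2b rose 3.82-fold against control (log2 fold change 1.93 ± 0.38, edgeR adjusted p = 0.022), and without tamoxifen+primidone replicate 1 the log2 fold change was 1.4 (adjusted p = 0.036).

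Nkd1, an intracellular inhibitor that binds Dishevelled, had 67.8, 64.1 and 72.2 CPM in tamoxifen+primidone libraries, 40, 49.9 and 48 CPM in tamoxifen libraries and 50.5, 50 and 46.5 CPM in control libraries. All tamoxifen+primidone libraries were above all others, while tamoxifen and control libraries overlapped. Nkd1 rose 1.39-fold against control (log2 fold change 0.47 ± 0.1, edgeR adjusted p = 0.025). Rspo1, a secreted enhancer of Wnt signalling, had 57.9, 50.5 and 48.1 CPM in tamoxifen+primidone libraries, 42.9, 43 and 42.3 CPM in tamoxifen libraries and 42.6, 33.8 and 29.9 CPM in control libraries. The tamoxifen+primidone libraries were again the 3 highest, and the tamoxifen libraries were close to each other and to control replicate 1. Rspo1 rose 1.47-fold against control (log2 fold change 0.56 ± 0.13, edgeR adjusted p = 0.036).

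Fzd6, a Frizzled receptor known for planar cell polarity in the mouse, had 87, 74.2 and 63.4 CPM in tamoxifen+primidone libraries, 71.9, 90.2 and 94.1 CPM in tamoxifen libraries and 110, 144 and 113 CPM in control libraries. The control libraries were the 3 highest, and both drug-treated groups overlapped. Fzd6 fell by 0.71 ± 0.15 on the log2 scale in tamoxifen+primidone against control libraries (edgeR adjusted p = 0.03). Fzd5, another receptor, had 16, 18.8 and 18.9 CPM in tamoxifen+primidone libraries, 21.5, 21.4 and 25.4 CPM in tamoxifen libraries and 26.1, 22.2 and 28 CPM in control libraries, and fell by 0.51 ± 0.13 (edgeR adjusted p = 0.046). Tcf7l2, a TCF/LEF factor, had 14.8, 13.3 and 13.1 CPM in tamoxifen+primidone libraries, 15.5, 15.8 and 17.2 CPM in tamoxifen libraries and 18.2, 22.7 and 17.7 CPM in control libraries. For Fzd5 and Tcf7l2 the tamoxifen+primidone libraries were the 3 lowest of 9, and for Tcf7l2 the 3 groups did not overlap at all. Tcf7l2 fell by 0.51 ± 0.13 (edgeR adjusted p = 0.047).

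Ranges of the tamoxifen+primidone and control libraries did not overlap for 15 of 48 members (31.2%), close to the 29.1% of all tested genes. Without control replicate 3 edgeR called 0 members, without control replicate 1 it called 1 (Rspo1), and without tamoxifen+primidone replicate 2 it called 2 (Nkd1 and Wnt2b). It called 3 without tamoxifen+primidone replicate 1 or tamoxifen replicate 1 (Fzd6, Nkd1 and Wnt2b each time), without tamoxifen+primidone replicate 3 (Fzd1, Rspo1 and Wnt2b) and without control replicate 2 (Fzd5, Lef1 and Wnt2b), while DESeq2 on all libraries called 10, where it called 10.4% of all genes. A fit with fewer libraries can gain or lose calls in any gene. The share of all genes called without each library is not given here, so those counts cannot show shifts particular to the Wnt genes. At an unadjusted p under 0.05, 11.3% of all genes were higher with all libraries, 8.51% without control replicate 1 and 8.94% without control replicate 3. Higher members were 20.8%, 14.3% and 14.3% in the same order. Lower members were 10.4%, 10.2% and 12.2%, against 11.9%, 9.05% and 9.56% of all genes. Over the 19 alternative settings Wnt2b was called in 16, Nkd1 in 15, Rspo1 in 12, Fzd6 in 11, Fzd5 in 6 and Tcf7l2 in 2. None of the 6 changed direction, but they were chosen on these same libraries.

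Cell type markers moved in this comparison too. Of the 4 mesothelial markers, Msln, Lrrn4 and Wt1 were higher by the same test, and the list summed to 124 to 150 CPM in tamoxifen+primidone libraries, 91.2 to 140 CPM in tamoxifen libraries and 69.5 to 85.4 CPM in control libraries. Wt1 was the largest part of that sum in every library. It had 70.1 to 82.1 CPM, 55.7 to 61.7 CPM and 53.8 to 60 CPM in the same order of groups. Of 10 epithelial markers Cldn4 and Elf3 were lower, with sums of 3922 to 4660 CPM, 5510 to 5800 CPM and 5324 to 5740 CPM in the same order of groups. Of 8 smooth muscle markers Actg2 and Myh11 were lower, with sums of 6413 to 8025 CPM, 6709 to 8161 CPM and 8353 to 13187 CPM. Of 9 stromal markers Hand2, a stromal transcription factor, was higher (log2 fold change 0.7, edgeR adjusted p = 0.0078). Of the 9, 6 had a log2 fold change above 0 and 3 below, with a median of 0.05. The list summed to 9014 to 10768 CPM, 10831 to 11136 CPM and 9440 to 12157 CPM in the same order of groups. No marker of these lists was at 0 in all libraries. The gland gene Ttr (log2 fold change 1.91, edgeR adjusted p = 0.014) and the cytotoxic lymphocyte gene Nkg7 (1.6, adjusted p = 0.011) were higher too. Itgam, of the same leukocyte list as Nkg7, was lower in each tamoxifen+primidone library than in each control library (−0.76, edgeR adjusted p = 0.087). The 6 leukocyte markers summed to 374 to 490 CPM in tamoxifen+primidone libraries, 431 to 639 CPM in tamoxifen libraries and 594 to 636 CPM in control libraries. Of these 6, 5 had a log2 fold change above 0. The 4 adipocyte markers were all higher at an unadjusted p under 0.05 with 0 past the edgeR test, and summed to 34.2 to 180 CPM in tamoxifen+primidone libraries, 16.7 to 139 CPM in tamoxifen libraries and 8.34 to 13 CPM in control libraries. The 6 estrogen-responsive genes summed to 15398 to 22333 CPM in tamoxifen+primidone libraries, 32902 to 41833 CPM in tamoxifen libraries and 29087 to 32993 CPM in control libraries, with Ltf, Muc1 and Greb1 lower against control by the edgeR test. In RNA from a whole organ, fewer cells of a type and less RNA per cell cannot be told apart, and the part of these markers in the Wnt results was not tested.

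Sequences upstream of Rspo1, Nkd1 and Tcf7l2 are shown because these genes passed in tamoxifen+primidone against control, and a TCF/LEF motif is what beta-catenin acts through. They are from RefSeq's promoter table for build GRCm38.p6, which is not the build of the counts. Dkk2 is added as the secreted inhibitor nearest to the threshold in tamoxifen against control. Each run is the 100 bases before a transcription start, 5′ to 3′ on the plus strand, and capitals mark CTTTGA or CTTTGT, the core letters of a TCF/LEF motif, searched on both strands.
Rspo1, chr4:124986330-124986429: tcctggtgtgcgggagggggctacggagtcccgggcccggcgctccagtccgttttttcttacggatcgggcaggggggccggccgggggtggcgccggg
Nkd1, chr8:88527533-88527632: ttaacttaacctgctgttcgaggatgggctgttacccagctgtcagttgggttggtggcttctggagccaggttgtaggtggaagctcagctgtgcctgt
Tcf7l2, outermost start, chr19:55741710-55741809: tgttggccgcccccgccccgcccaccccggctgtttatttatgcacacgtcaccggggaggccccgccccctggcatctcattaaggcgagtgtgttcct
Tcf7l2, inner start, chr19:55895221-55895320: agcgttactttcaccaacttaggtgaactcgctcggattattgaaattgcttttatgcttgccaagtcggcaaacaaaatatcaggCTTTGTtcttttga
Dkk2, chr3:132085192-132085291: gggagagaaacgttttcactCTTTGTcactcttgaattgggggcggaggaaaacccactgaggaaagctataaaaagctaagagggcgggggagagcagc

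The stretch before Rspo1 was 75% G or C and held no match, and neither did the stretch before Nkd1, with 54% G or C. The outermost Tcf7l2 start, with 66% G or C, had no match. The inner start, with 39%, had 1 at bases −14 to −9, but inner starts were shown only where they held a match. Dkk2 had 1 match at bases −80 to −75. In windows of 250 bases, 10 of the 48 entries found for 38 of the 56 members held a match (20.8%), against 27.6% of all 32851 entries in the table. In the 100 bases nearest the start, 7 of the 48 entries held a match, against 11.2% of all entries. The members' share thus lay below that of the table at 250 bases and above it at 100 bases. A match describes letters in a window and is no evidence of a bound site.

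**Figure D2:**
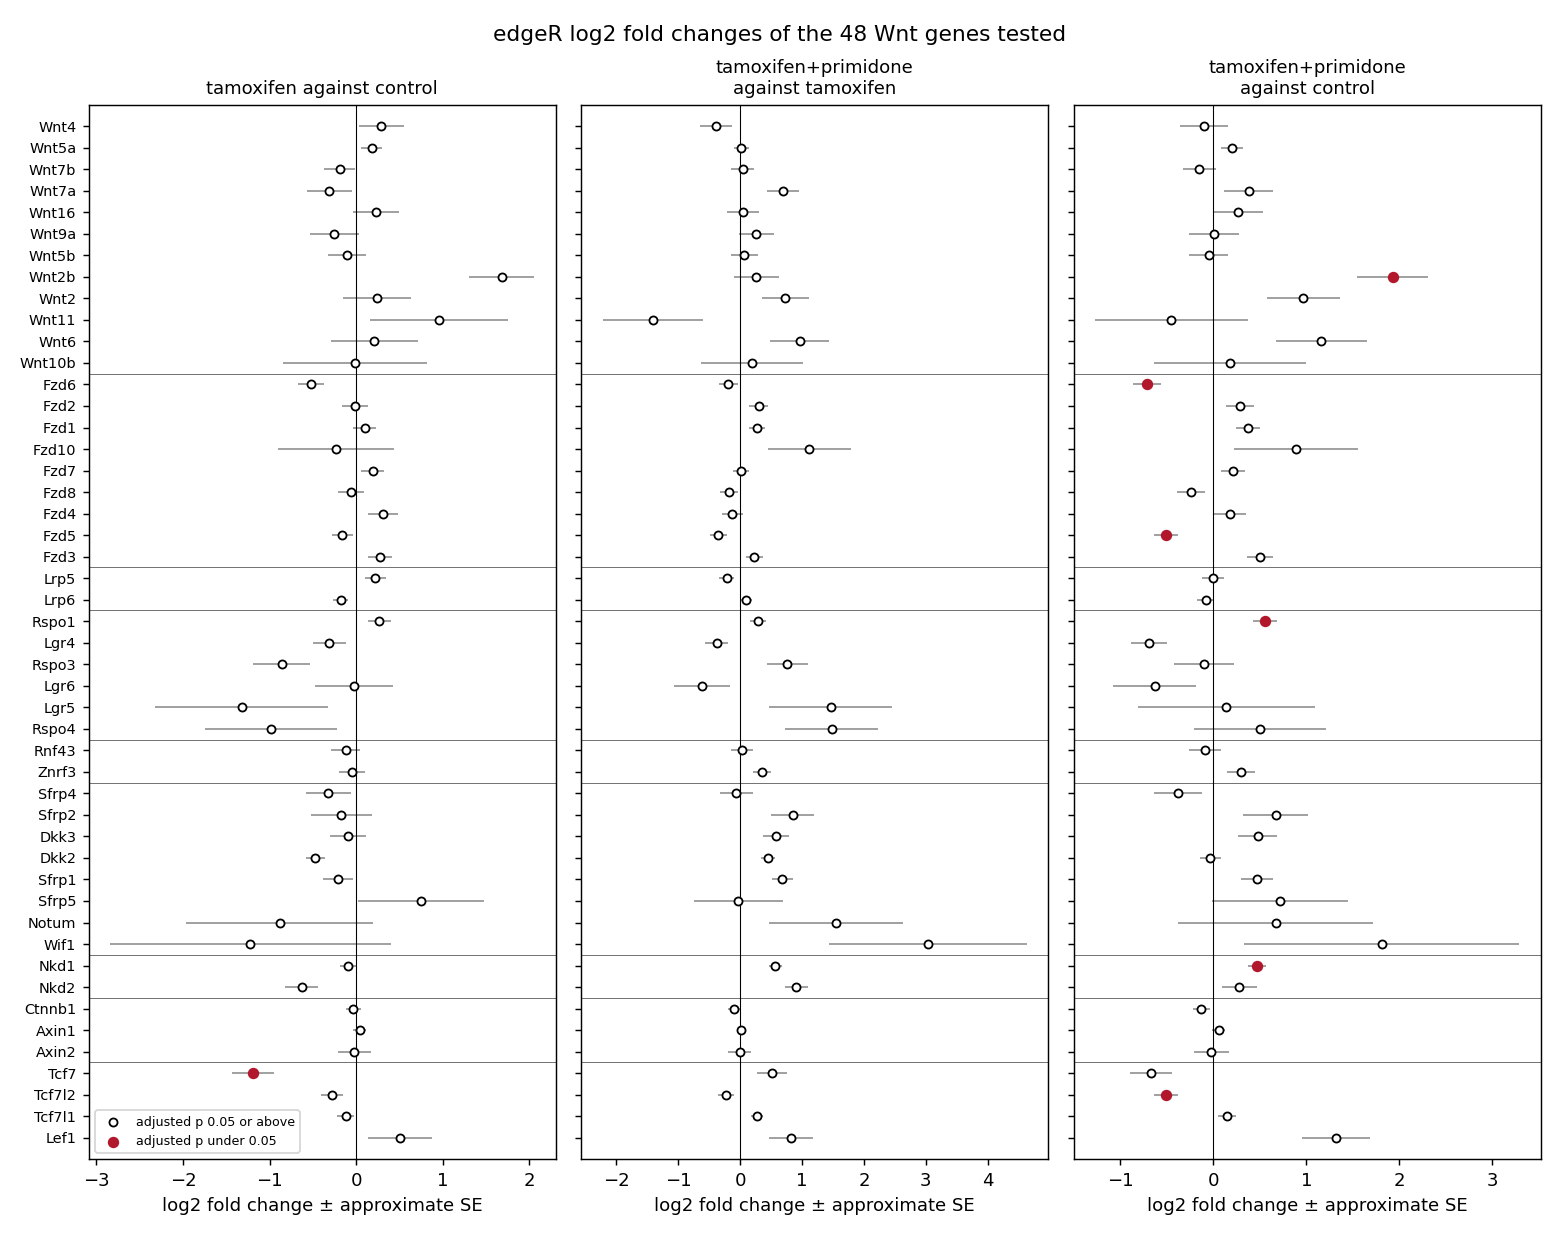
Log2 fold change ± approximate SE of the 48 tested Wnt genes in the 3 comparisons, from edgeR on 3 libraries a group, with filled points at an adjusted p under 0.05 and with a scale of its own for each panel. In tamoxifen+primidone against control 6 points are filled, in tamoxifen against control Tcf7 is, and in tamoxifen+primidone against tamoxifen none is.

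Tamoxifen against control asked what neonatal tamoxifen alone left in the adult uterus. Tcf7, a TCF/LEF factor and a target of the pathway, was the 1 of 48 members called (2.08%), where 1.53% of all tested genes were called. It had 74.4, 42 and 58.1 CPM in tamoxifen+primidone libraries, 35.9, 54.2 and 31.4 CPM in tamoxifen libraries and 85.3, 99.2 and 92.4 CPM in control libraries. The 3 control libraries were the highest, and both drug-treated groups overlapped. Tcf7 fell to 40.5 ± 12.1 CPM in tamoxifen libraries, against 92.3 ± 6.93 CPM in control libraries (SD, n = 3 each), a log2 fold change of −1.19 ± 0.24 (edgeR adjusted p = 0.048). In tamoxifen+primidone against control its log2 fold change was −0.67 ± 0.23 (adjusted p = 0.13).

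Next to the threshold were Wnt2b, with a log2 fold change of 1.68 ± 0.38 (edgeR adjusted p = 0.056), and Dkk2, a secreted inhibitor that binds the Lrp co-receptors, with −0.47 ± 0.11 (adjusted p = 0.058). Dkk2 had 52.2, 47.5 and 42.3 CPM in tamoxifen+primidone libraries, 36.3, 35.7 and 32.2 CPM in tamoxifen libraries and 49.9, 51.7 and 42.9 CPM in control libraries. The tamoxifen libraries were the 3 lowest, while tamoxifen+primidone and control libraries overlapped. Of the 48 members, 6 had an unadjusted p under 0.05 (12.5%), against 17.8% of all genes. These were 1 higher (2.08%, against 8.82%) and 5 lower (10.4%, against 8.95%). There were 10 members with ranges that did not overlap between the groups (20.8%), against 26.1%. The median log2 fold change of the members was −0.09, against 0 over all genes tested, and 16 of 48 lay above 0 (33.3%, against 50% of all genes). Both the count and the sign rested on single libraries: without control replicate 2 there were 5 members higher at an unadjusted p under 0.05 (10.4%, against 6.97%) and 4 lower, and the median was 0.073, against 0.007 over all genes. Without tamoxifen replicate 2, and likewise with the replicate number as a block, 4 were higher (8.16%, against 8.07%, and 8.33%, against 9.24%), and without tamoxifen replicate 1 the median was −0.036.

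The count in this comparison changed with single libraries, and so did the share of all genes called. None was called without tamoxifen replicate 1 or 3, where 0.273% and 0.397% of all genes were. The same held without control replicate 1, 2 or 3, where 0.143%, 0.487% and 0.234% of all genes were called. Dkk2 took the place of Tcf7 without tamoxifen+primidone replicate 3, and 4 were called without tamoxifen+primidone replicate 1, where 2.86% of all genes were. DESeq2 called 5, where it called 6.15% of all genes. Proliferation markers lay apart here: Mki67, Top2a, Cdc20, Ccnb1, Bub1b and Mcm3 summed to 77 to 83.5 CPM in tamoxifen libraries and 183 to 242 CPM in control libraries, with Cdc20 and Bub1b lower by the edgeR test, and to 84.6 CPM in tamoxifen+primidone replicate 1 against 242 and 215 CPM in replicates 2 and 3. The smooth muscle sums given above were lower in tamoxifen libraries, with all 8 log2 fold changes below 0 and 0 past the edgeR test, and the mesothelial marker Msln was higher (log2 fold change 1.9, adjusted p = 0.04). The other mesothelial markers did not pass, with log2 fold changes of 1.69 for Upk3b, 1.56 for Lrrn4 and 0.02 for Wt1. The squamous keratin Krt6b (3.55, edgeR adjusted p = 0.027) and the gland gene Ttr (1.65, adjusted p = 0.041) were higher as well. The other squamous markers did not pass, with log2 fold changes of 1.34 for Krt5, 0.06 for Trp63 and −0.35 for Krt14. At an unadjusted p under 0.05, 4 of 6 leukocyte markers were higher, with 0 past the edgeR test. Itgam lay lower (log2 fold change −0.37, edgeR adjusted p = 0.43), and the leukocyte sums given above overlapped between tamoxifen and control libraries. The adipocyte sums given above were higher in each tamoxifen library than in each control library. The part of these markers in the Wnt values was not tested.

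Tamoxifen+primidone against tamoxifen asked what primidone changed in tamoxifen-treated mice. By edgeR 0 of 48 members passed at an adjusted p under 0.05, where 0.0132% of all tested genes did, limma-voom also called 0, and DESeq2, which called 3.22% of all genes, called 4, namely Dkk2, Nkd1, Nkd2 and Sfrp1. At an unadjusted p under 0.05 there were 13 members (27.1%, against 13.8% of all genes), of which 12 were higher (25%, against 6.3%) and 1, Fzd5, was lower (2.08%, against 7.51%). The 12 were the inhibitors Nkd1, Nkd2, Dkk2, Dkk3, Sfrp1 and Sfrp2, the ligase Znrf3, the ligand Wnt7a, the enhancers Rspo1 and Rspo3, and the factors Lef1 and Tcf7l1. The groups did not overlap for 17 members (35.4%, against 16.6%), 13 of them higher (27.1%, against 8.08%) and 4 lower (8.33%, against 8.55%). The median log2 fold change of the members was 0.24, against 0.02 over all genes, with 34 of 48 above 0 (70.8%, against 52.8%). On FPKM the medians were closer, at 0.128 for the members and 0.068 for all genes on the log2(FPKM + 1) scale, 0.155 and 0.08 on the log2(FPKM + 0.1) scale, and 0.097 and 0.033 on the log2(FPKM + 1) scale with no filter.

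Nkd1 had the smallest p of the members here, with a log2 fold change of 0.57 ± 0.1 (edgeR adjusted p = 0.072). Nkd2, the other Naked cuticle gene, had 53.8, 56.6 and 69.3 CPM in tamoxifen+primidone libraries, 30.8, 37.1 and 27.8 CPM in tamoxifen libraries and 45.3, 64.3 and 38.7 CPM in control libraries. The tamoxifen libraries were the 3 lowest, with a log2 fold change of 0.91 ± 0.19 for tamoxifen+primidone against tamoxifen (edgeR adjusted p = 0.12) and −0.63 for tamoxifen against control (adjusted p = 0.13). For Dkk2 the same values were 0.45 ± 0.11 (adjusted p = 0.13) and −0.47 (adjusted p = 0.058), and both comparisons share the tamoxifen libraries.

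Without tamoxifen+primidone replicate 1, the number of members higher at an unadjusted p under 0.05 was 4 of 49 (8.16%, against 5.35% of all genes), and the median log2 fold change was 0.20. That number was 5 without tamoxifen replicate 3 (10.2%, against 5.67%) and 6 without tamoxifen replicate 1 (12.2%, against 4.69%). Leaving out any other library gave from 9 to 13 (18.4% to 27.1%, against 5.21% to 6.34%). Epithelial markers lay lower in the same comparison, with all 10 log2 fold changes below 0 and 8 at an unadjusted p under 0.05, but none passed the edgeR test (Cldn4 had the smallest adjusted p, 0.069). All 6 proliferation markers lay higher and the estrogen-responsive sums given above lay lower, with no gene of either list past the threshold. Of 9 stromal markers Hand2, Hoxa10 and Hoxa11 lay higher at an unadjusted p under 0.05, with log2 fold changes of 0.56, 0.56 and 0.5. The list had 6 log2 fold changes below 0, and its sums given above lay lower. Of 4 mesothelial markers Wt1 lay higher (0.38), and 2 of the 4 had a log2 fold change below 0. Hand2, Hoxa10, Hoxa11 and Wt1 were each highest in the 3 tamoxifen+primidone libraries, and none passed the edgeR test. The part of these lists in the Wnt values was not tested.

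**Figure D3:**
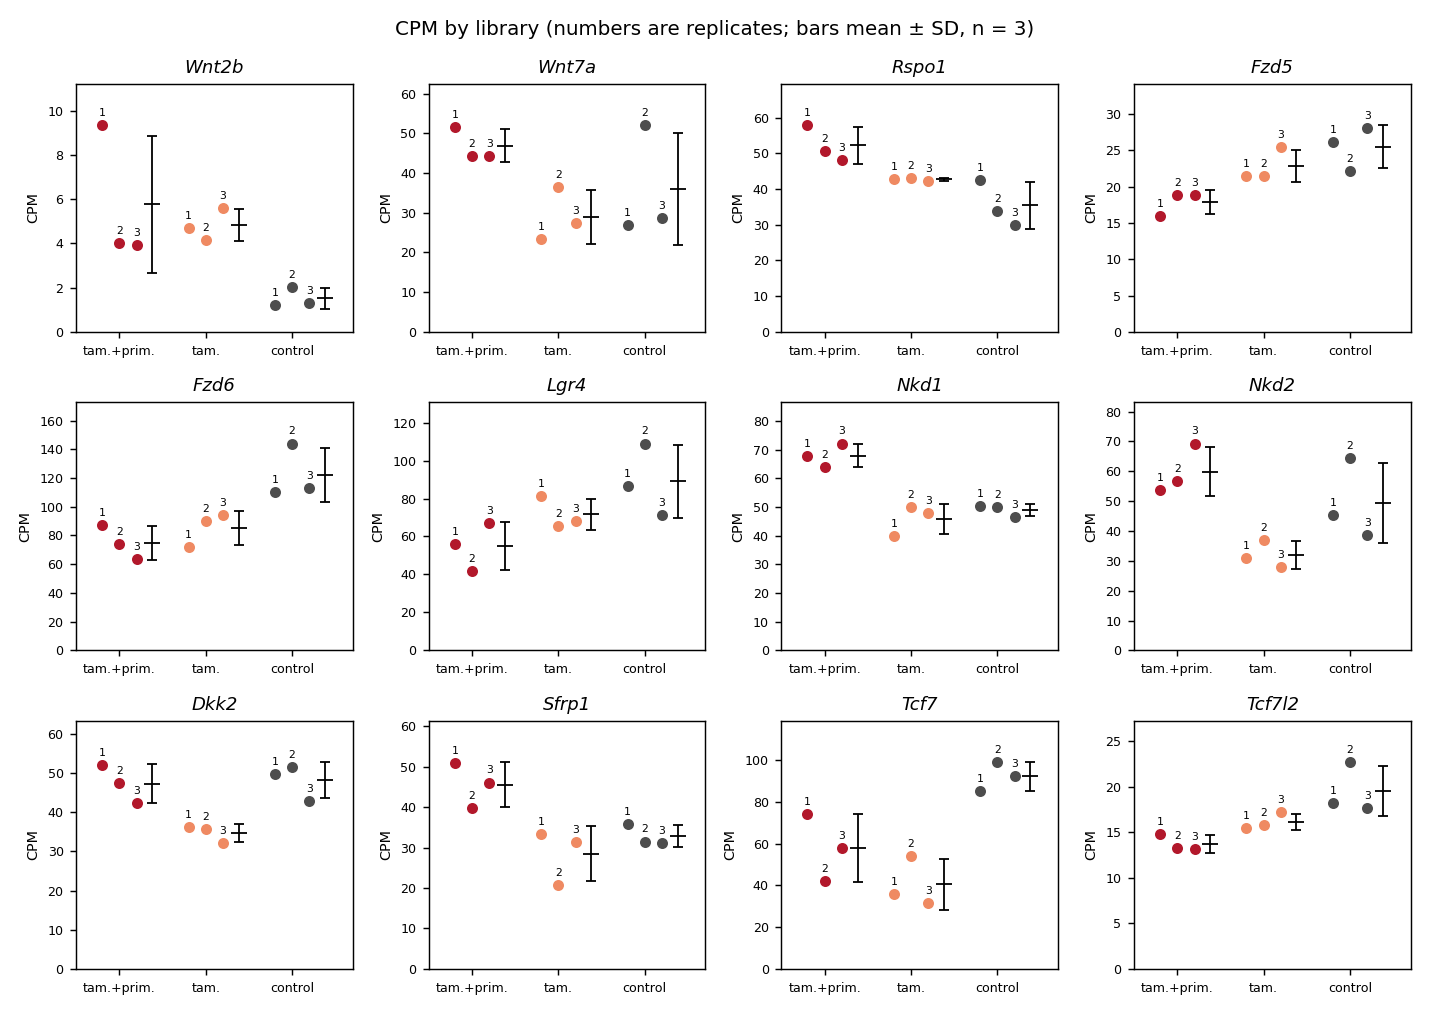
CPM of 12 Wnt genes in each library, with replicate numbers beside the points and mean ± SD (n = 3) to the right of each group. Wnt2b is low in the 3 control libraries, Nkd1 and Rspo1 are highest in the 3 tamoxifen+primidone libraries, and Dkk2 and Nkd2 are lowest in the 3 tamoxifen libraries.

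Among the 12 ligands tested, Wnt2b was the only one called, in tamoxifen+primidone against control. Wnt4, which is needed for the Muellerian duct and for decidualization in the mouse, had 70.3, 136 and 111 CPM in tamoxifen+primidone libraries, 104, 182 and 130 CPM in tamoxifen libraries and 116, 122 and 102 CPM in control libraries. Wnt5a, a stromal ligand of the non-canonical branch, had 160, 152 and 159 CPM in tamoxifen+primidone libraries, 158, 128 and 178 CPM in tamoxifen libraries and 139, 147 and 124 CPM in control libraries. Both ligands overlapped between the drug-treated groups, while for Wnt5a the tamoxifen+primidone libraries were all above the control libraries (log2 fold change 0.2 ± 0.12, edgeR adjusted p = 0.33).

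Wnt7a, an epithelial ligand that patterns the oviduct and uterus, had 51.7, 44.4 and 44.4 CPM in tamoxifen+primidone libraries, 23.3, 36.5 and 27.3 CPM in tamoxifen libraries and 26.8, 52.1 and 28.7 CPM in control libraries. All tamoxifen+primidone libraries lay above all tamoxifen libraries, and control replicate 2 lay above every other library (log2 fold change 0.69 ± 0.26 for tamoxifen+primidone against tamoxifen, edgeR adjusted p = 0.28). Wnt7b, a close relative, had 39.3, 67.9 and 48.3 CPM in tamoxifen+primidone libraries, 42.4, 54.3 and 55 CPM in tamoxifen libraries and 54.7, 59.7 and 58.4 CPM in control libraries. Its groups overlapped in all comparisons. Wnt11, a non-canonical ligand, was low, with 0.233, 0.684 and 0.428 CPM in tamoxifen+primidone libraries, 1.21, 0.827 and 1.56 CPM in tamoxifen libraries and 0.34, 1.42 and 0.0809 CPM in control libraries. The tamoxifen+primidone libraries lay below the tamoxifen libraries, and the control libraries overlapped both (log2 fold change −1.41 ± 0.81, edgeR adjusted p = 0.48).

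The other tested ligands, Wnt2, Wnt5b, Wnt6, Wnt9a, Wnt10b and Wnt16, had log2 fold changes between −0.25 and 1.16 in the 3 comparisons and passed in none. Wnt2 and Wnt6 had their 3 tamoxifen+primidone libraries above the 6 others, at no more than 1.5 and 0.906 CPM.

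Of the 9 Frizzled receptors tested, Fzd5 and Fzd6 were the 2 called, both lower in tamoxifen+primidone against control. Fzd2 had 92.4, 89.7 and 62.5 CPM in tamoxifen+primidone libraries, 61, 61.6 and 75.4 CPM in tamoxifen libraries and 71.9, 64 and 63.5 CPM in control libraries, and its groups overlapped. Fzd3, which acts in planar polarity and axon guidance, had 21.1, 19 and 25.4 CPM in tamoxifen+primidone libraries, 18.3, 16.9 and 20.9 CPM in tamoxifen libraries and 16.4, 16.5 and 13.5 CPM in control libraries. Its control libraries were the 3 lowest, with a log2 fold change of 0.5 ± 0.14 for tamoxifen+primidone against control (edgeR adjusted p = 0.068). Fzd10 was the most uneven receptor, with 114, 52.4 and 39.9 CPM in tamoxifen+primidone libraries, 15.3, 54.3 and 25.3 CPM in tamoxifen libraries and 26.1, 65.5 and 19.4 CPM in control libraries. In each group 1 library stood above the other 2, and the log2 fold change of 1.12 ± 0.67 for tamoxifen+primidone against tamoxifen did not pass (edgeR adjusted p = 0.52).

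The co-receptor Lrp5 had 97.4, 112 and 88 CPM in tamoxifen+primidone libraries, 119, 114 and 114 CPM in tamoxifen libraries and 105, 110 and 82.9 CPM in control libraries. Lrp6, its partner in function, had 125, 108 and 113 CPM in tamoxifen+primidone libraries, 97.3, 114 and 113 CPM in tamoxifen libraries and 122, 123 and 121 CPM in control libraries. Tamoxifen libraries were the 3 highest for Lrp5, and they were all below the control libraries for Lrp6. Neither passed in any comparison, and the log2 fold changes lay between −0.22 and 0.22.

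Lgr4, the R-spondin receptor with the highest level, had 56.2, 42 and 67.2 CPM in tamoxifen+primidone libraries, 81.1, 65.6 and 68 CPM in tamoxifen libraries and 86.7, 109 and 71.2 CPM in control libraries. The tamoxifen+primidone libraries were all below the control libraries, with a log2 fold change of −0.69 ± 0.19 (edgeR adjusted p = 0.069). Lgr5, a stem cell marker in several epithelia and a target of beta-catenin, was near the floor, with 0.982, 0.431 and 1.94 CPM in tamoxifen+primidone libraries, 0.462, 0.496 and 0.256 CPM in tamoxifen libraries and 0.235, 2.65 and 0.162 CPM in control libraries. Control replicate 2 alone was above all others.

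Rspo3 and Lgr6 are named after their values were seen. Rspo3, which like Rspo1 enhances Wnt signals, had 54.3, 28.5 and 20 CPM in tamoxifen+primidone libraries, 21.6, 23.5 and 15.5 CPM in tamoxifen libraries and 39.5, 37.4 and 33.2 CPM in control libraries. Its tamoxifen libraries were all below the control libraries, with a log2 fold change of −0.86 ± 0.33 (edgeR adjusted p = 0.22), while tamoxifen+primidone replicate 1 was above all others. Its log2 fold change for tamoxifen+primidone against tamoxifen was 0.76 ± 0.33 (adjusted p = 0.35), and 0.26 without that replicate. Lgr6, a receptor like Lgr4, had its lowest value, 22.1 CPM, in the same library, where the other 8 ran from 41.7 to 92.5 CPM. Rspo4 stayed under 0.63 CPM in every library.

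Of the membrane ubiquitin ligases, Rnf43 had 28.3, 20.9 and 24.7 CPM in tamoxifen+primidone libraries, 21.1, 27.9 and 23.3 CPM in tamoxifen libraries and 25, 31.7 and 22 CPM in control libraries. Znrf3 had 23.6, 20.5 and 17.5 CPM in tamoxifen+primidone libraries, 15.1, 17 and 16.3 CPM in tamoxifen libraries and 14.5, 19.9 and 15.5 CPM in control libraries. Rnf43 overlapped among all groups, and Znrf3 was higher in each tamoxifen+primidone library than in each tamoxifen library (log2 fold change 0.35 ± 0.15, edgeR adjusted p = 0.34).

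Of 8 secreted inhibitors tested, edgeR called 0 in each of the 3 comparisons, as did limma-voom, while DESeq2 called Dkk2 in tamoxifen against control and Dkk2 and Sfrp1 in tamoxifen+primidone against tamoxifen. At an unadjusted p under 0.05 there were 4 of 8 in tamoxifen+primidone against tamoxifen, 2 in tamoxifen+primidone against control and 1 in tamoxifen against control, where 13.8%, 23.2% and 17.8% of all genes were. Sfrp4, the most abundant, had 259, 269 and 153 CPM in tamoxifen+primidone libraries, 271, 239 and 199 CPM in tamoxifen libraries and 329, 202 and 354 CPM in control libraries, with overlap among all groups. Sfrp2, a relative, had 92.1, 76.9 and 55.7 CPM in tamoxifen+primidone libraries, 38, 53.7 and 33.3 CPM in tamoxifen libraries and 53.1, 63.5 and 24.3 CPM in control libraries. Its tamoxifen+primidone libraries were all above its tamoxifen libraries, with a log2 fold change of 0.85 ± 0.35 (edgeR adjusted p = 0.34).

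Sfrp1, a Frizzled-related inhibitor, had 50.9, 39.7 and 46.1 CPM in tamoxifen+primidone libraries, 33.3, 20.7 and 31.3 CPM in tamoxifen libraries and 35.9, 31.5 and 31.1 CPM in control libraries. Dkk3, a divergent Dickkopf, had 100, 93.8 and 106 CPM in tamoxifen+primidone libraries, 86.3, 68 and 47 CPM in tamoxifen libraries and 69.8, 87.2 and 57.9 CPM in control libraries. Both were highest in the 3 tamoxifen+primidone libraries, with log2 fold changes against tamoxifen of 0.68 ± 0.17 (edgeR adjusted p = 0.15) for Sfrp1 and 0.58 ± 0.21 (adjusted p = 0.28) for Dkk3.

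Notum, an enzyme that removes the lipid of Wnt ligands, had 0.905, 0.785 and 3.12 CPM in tamoxifen+primidone libraries, 1, 0.193 and 0.434 CPM in tamoxifen libraries and 0.209, 2.65 and 0.162 CPM in control libraries. Wif1, which binds Wnt ligands, had 3.39, 0.076 and 0.503 CPM in tamoxifen+primidone libraries, 0.103, 0.221 and 0.153 CPM in tamoxifen libraries and 0.0261, 1.1 and 0 CPM in control libraries. Each had 1 high library in the tamoxifen+primidone and control groups, and control replicate 2 was the highest control library for Notum, Wif1, Lgr5 and Wnt11. Wif1 had a log2 fold change of 3.03 ± 1.6 for tamoxifen+primidone against tamoxifen, the largest among the members in that comparison, and did not pass (edgeR adjusted p = 0.45). Sfrp5 ranged from 0.294 to 1.93 CPM with overlap among the groups.

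**Figure D4:**
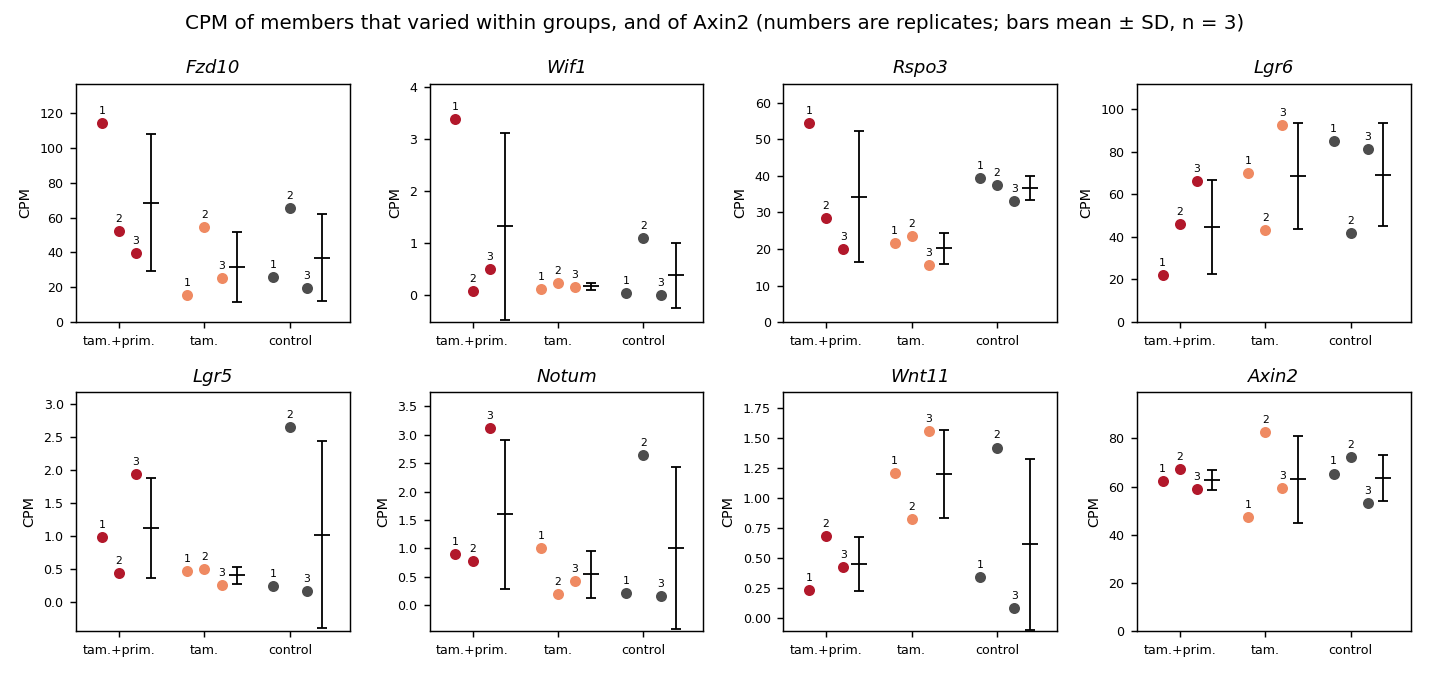
CPM of 7 Wnt genes that varied within groups, and of Axin2, in each library, with mean ± SD (n = 3) to the right of each group. Tamoxifen+primidone replicate 1 holds the highest value of Fzd10, Wif1 and Rspo3 and the lowest of Lgr6, and control replicate 2 holds the highest control value of Lgr5, Notum and Wnt11.

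Variation within groups was larger for the members than for the table as a whole. The median coefficient of variation over the 48 tested members was 16.1% in tamoxifen+primidone, 15% in tamoxifen and 17.5% in control libraries, against 13%, 11.4% and 9.64% over all tested genes, with no test of the difference. Axin1, Ctnnb1, Lrp6 and Tcf7l1 were the 4 members under 10% in all groups. Wif1, Notum, Lgr5 and Wnt11 exceeded 100% in the control group.

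Beta-catenin had 298, 301 and 324 FPKM in tamoxifen+primidone libraries, 314, 315 and 314 FPKM in tamoxifen libraries and 305, 321 and 333 FPKM in control libraries. Axin1, a scaffold of the destruction complex, had 68.5, 64.7 and 65.1 CPM in tamoxifen+primidone libraries, 63.3, 67.5 and 64.4 CPM in tamoxifen libraries and 61.7, 65 and 63.8 CPM in control libraries. Axin2, the scaffold that is also a widely used readout of beta-catenin activity, had 62.1, 67.2 and 58.9 CPM in tamoxifen+primidone libraries, 47.2, 82.6 and 59.2 CPM in tamoxifen libraries and 65.4, 72.4 and 53.2 CPM in control libraries. All 3 genes overlapped among all groups. The log2 fold changes of Axin2 were −0.02 ± 0.19 for tamoxifen against control, −0.01 ± 0.19 for tamoxifen+primidone against tamoxifen and −0.02 ± 0.19 for tamoxifen+primidone against control (edgeR adjusted p = 0.98, 0.99 and 0.96).

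Among the TCF/LEF factors, Lef1 had 3.67, 3.22 and 3.22 CPM in tamoxifen+primidone libraries, 1.93, 1.65 and 2.15 CPM in tamoxifen libraries and 0.758, 2.14 and 1.13 CPM in control libraries. The tamoxifen+primidone libraries were the 3 highest, with a log2 fold change of 1.32 ± 0.37 against control (edgeR adjusted p = 0.064) that passed in 6 of 19 alternative settings. Tcf7l1, mostly a repressor, had 29.8, 27.9 and 26.2 CPM in tamoxifen+primidone libraries, 24.3, 23 and 22.2 CPM in tamoxifen libraries and 28, 23.5 and 24.2 CPM in control libraries. In tamoxifen+primidone against control the 4 factors had log2 fold changes of 1.32 for Lef1, 0.15 for Tcf7l1, −0.51 for Tcf7l2 and −0.67 for Tcf7, of which Tcf7l2 passed.

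A test of any difference among the 3 groups called Nkd1 (edgeR adjusted p = 0.024) and Wnt2b (adjusted p = 0.04), 2 of 48 members (4.17%), where 3.84% of all tested genes were called. Fzd6, Dkk2, Tcf7 and Nkd2 followed with adjusted p of 0.051, 0.052, 0.053 and 0.059. Without control replicate 1 or 3 it called 0, without tamoxifen replicate 1 or 3 it called Nkd1 only, and without tamoxifen+primidone replicate 1 or 3 it called 4. The share of all genes called in those fits is not given here, so a shift particular to the Wnt genes cannot be read from them.

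Other genes of the pathway were read from a list of 54 transducers, regulators and planar polarity genes, of which 50 were tested. By edgeR 0 of 50 passed in tamoxifen against control and 0 in tamoxifen+primidone against tamoxifen, with 10 (20%, against 17.8% of all genes) and 8 (16%, against 13.8%) at an unadjusted p under 0.05 and 1 called by DESeq2 in each. In tamoxifen+primidone against control, with 14 at an unadjusted p under 0.05 (28%, against 23.2%), Bcl9, a co-activator that binds beta-catenin, was the 1 that passed by edgeR, while limma-voom called 2 (Bcl9 and Daam2) and DESeq2 called 7 (Apc, Bcl9, Celsr2, Daam2, Dvl1, Prickle1 and Tle1). Bcl9 had 198, 205 and 199 CPM in tamoxifen+primidone libraries, 213, 324 and 261 CPM in tamoxifen libraries and 294, 331 and 269 CPM in control libraries (log2 fold change −0.57 ± 0.14, edgeR adjusted p = 0.044), and its tamoxifen+primidone libraries were the 3 lowest. The planar polarity cadherin Celsr2 was next, with −0.34 ± 0.09 against control (adjusted p = 0.061) and −0.37 ± 0.09 for tamoxifen against control (adjusted p = 0.084), followed there by the destruction complex gene Apc with −0.26 (adjusted p = 0.13). In tamoxifen+primidone against tamoxifen the smallest p belonged to Prickle1, a planar polarity gene, with 0.39 ± 0.11 (adjusted p = 0.18), and to the Wnt inhibitor Apcdd1, with 0.53 ± 0.16 (adjusted p = 0.19).

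Among 12 textbook targets of beta-catenin outside the 56 genes, Sox9, a transcription factor of epithelial progenitors, was the 1 that passed, in tamoxifen+primidone against control. That is 8.33% of the list, against 5.35% of all genes, and 3 had an unadjusted p under 0.05 (25%, against 23.2%). Sox9 had 30.8, 34.1 and 25.8 CPM in tamoxifen+primidone libraries, 35.6, 43.9 and 45.4 CPM in tamoxifen libraries and 49.5, 59.1 and 43.1 CPM in control libraries, and fell by 0.74 ± 0.15 on the log2 scale (edgeR adjusted p = 0.023). The tamoxifen+primidone libraries were the 3 lowest, beside epithelial marker sums that were also lowest there and whose part was not tested. Jun, a transcription factor of the AP-1 complex, had the next smallest p there, with −0.38, and missed the threshold by edgeR (adjusted p = 0.05 after rounding), while DESeq2 called both Jun and Sox9. Sp5, a direct target, had 0.853, 1.14 and 0.679 CPM in tamoxifen+primidone libraries, 1.31, 1.21 and 1.18 CPM in tamoxifen libraries and 0.549, 2.14 and 0.351 CPM in control libraries, with control replicate 2 again highest. By edgeR 0 of 12 passed in the other 2 comparisons, with 1 at an unadjusted p under 0.05 in each. That is 8.33%, against 17.8% of all genes in tamoxifen against control and 13.8% in tamoxifen+primidone against tamoxifen. There Cd44 had the smallest p for tamoxifen against control (log2 fold change 0.63, edgeR adjusted p = 0.12), which DESeq2 called, followed by Jun (−0.2, adjusted p = 0.32). For tamoxifen+primidone against tamoxifen they were Sox9 (−0.46 ± 0.15, edgeR adjusted p = 0.22) and Tnfrsf19, a receptor of the tumour necrosis factor family (0.26, adjusted p = 0.4), and DESeq2 called 0. The median log2 fold changes of the 12 targets were 0.15 for tamoxifen+primidone against control, 0.1 for tamoxifen+primidone against tamoxifen and −0.06 for tamoxifen against control, and those of the 50 pathway genes were 0.06, 0.03 and −0.02, against 0.01, 0.02 and 0 over all genes tested.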

How the data were processed

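RNA was measured in 9 uterus libraries, grouped and numbered by their labels. The submitters' processing notes name build GRCm39 and the tools DESeq2, R 3.2.0, HTSeq and HISAT2. The annotation and strand setting are not stated in what was used here, so reads of antisense or overlapping genes cannot be told apart. Raw counts of reads, as whole numbers for each gene symbol, were deposited by the authors. The authors deposited FPKM values for the same genes too, scaled to library size and gene length, and these were used for levels between genes. No gene name was blank.

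These counts went into edgeR 4.0.16 under R 4.3.3: filterByExpr with the groups, TMM factors, then robust quasi-likelihood tests. All 9 libraries entered 1 fit, with two-sided contrasts, Benjamini-Hochberg adjustment over the 15186 genes tested and a threshold of 0.05. The approximate SE of a log2 fold change is its size over the root of its F value, which is rough for low counts. The biological coefficient of variation was 0.203. Replicates of a group differed by a chi-square per degree of freedom of 19.57 to 78.47, so none was counted as a repeat of another. The design text gives 3 mice a group, and p-values measure the spread between these libraries.

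Alternatives used DESeq2 1.42.0 and limma 3.58.1, on counts and on log2(FPKM + 1) or log2(FPKM + 0.1), other scalings, no filter, a replicate block, 2-group fits and each library left out. The procedure was tested on simulated data.

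The rule for the members, which uses symbols alone, and the lists were chosen with earlier results of these data known. Named with every library were members past the threshold, members of the textbook uterine Wnt system and beta-catenin feedback targets, the 2 highest of each role by FPKM, and the 3 with the smallest p in each direction of each comparison; Rspo3, Lgr6, Wif1, Sfrp1, Dkk3 and Tcf7l1 were added after their values were seen. Promoters that overlapped an annotated exon were left out, namely those of Wnt2b and Fzd5, the latter for 1 base. The Tcf7 window was left out by hand, as it was read as coding sequence of a long isoform, and none was printed for Fzd6.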

Additional observations from a re-analysis of the deposited data

How the results depend on the processing

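The 34 results for single genes followed here were those with an unadjusted p under 0.05 in the main fit. Over 19 alternatives at most, no direction reversed. As the genes were chosen on the same libraries, a reversal was unlikely from the start, and this is no independent test of direction. In 62 cases a call was lost and in 29 cases one was gained. No setting moved the median of all genes by over 0.1 on the log2 scale. For tamoxifen against control, where 1 member was called, DESeq2 called 5, a fit of only the 2 groups compared called 4, and limma on log2(FPKM + 0.1), or on log2(FPKM + 1) with no filter, called 0. The count without the low-count filter was 1, but the gene was Wnt2b in place of Tcf7. Leaving out each library in turn gave from 0 to 4, where from 0.143% to 2.86% of all genes were called. For tamoxifen+primidone against tamoxifen, where 0 were called, DESeq2 called 4 and each left-out library gave 0. For tamoxifen+primidone against control, where 6 were called, DESeq2 called 10, the fit of only the 2 groups compared called 3, upper-quartile factors left 4, and leaving out each library gave from 0 to 5. For any difference among the 3 groups, where 2 were called, no low-count filter gave 4, DESeq2 gave 13, each of the 3 limma fits on FPKM gave 1, and leaving out each library gave from 0 to 4. The cause of these shifts was not tested.

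The replicate numbers of the labels were not treated as a pairing in the main fit. Same-numbered libraries of different groups had correlations of their deviations from −0.134 to 0.177, with 3 of 9 above 0.1. Differently numbered libraries ran from −0.291 to 0.158. Such correlations cannot exclude a pairing or a shared batch. With the replicate number as a block, edgeR called 1 member for tamoxifen against control (Dkk2, not Tcf7), 0 for tamoxifen+primidone against tamoxifen, 5 for tamoxifen+primidone against control and 5 for any difference among the groups. With 3 libraries a group, members that were low and uneven within groups were measured with wide error. The SE of the log2 fold changes of Wif1 reached 1.62. Wif1 had 3.39 CPM in tamoxifen+primidone replicate 1, 1.1 CPM in control replicate 2 and under 1 CPM in the others. For Wnt6, at no more than 0.906 CPM in any library, the SE reached 0.5.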
